A study of Homo sapiens with 3 samples.

Results

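Chromatin immunoprecipitation followed by sequencing (ChIP-seq) gave 298 regions bound by Fra-1, by Fra-2 or by both whose centre lay in an exon of a protein-coding gene. They were drawn from 14558 union peaks on chromosomes 1 to 22, made by merging every Fra-1 peak with any Fra-2 peak that shared at least 1 bp with it. Of these union peaks, 1251 lay no more than 1 Mb from a run of unknown bases 1 Mb or longer and were set aside, which left 13307. A peak was called exonic when its centre lay in coding or untranslated exon sequence of a protein-coding transcript and more than 1 kb from the transcription start site (TSS) of every protein-coding transcript. The remaining 13009 peaks away from gaps were 5569 in introns, 6653 between genes and 787 within 1 kb of such a TSS, called promoter peaks here.

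The cells were MDA-MB-231, a human line established from a breast cancer and labelled triple negative and basal B, with no treatment named. The groups are chromatin precipitated with an antibody to Fra-1, chromatin precipitated with an antibody to Fra-2, and input DNA. Each antibody has 1 peak list, of 9998 peaks for Fra-1 and 13003 for Fra-2. The labels speak of 2 independent replicates, but with 1 list per antibody the spread between replicates is unknown, as is the read depth behind the peaks, and the input was not analysed here. Intervals are exact 95% intervals (Clopper-Pearson for shares, Poisson for peaks per Mb), those of differences are Newcombe intervals, and all cover counting error only, with neighbouring peaks taken as independent.

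Fra-1 and Fra-2, the products of FOSL1 and FOSL2, are Fos-family proteins that bind DNA as AP-1 dimers with a Jun partner. Their main recognition element is TGACTCA, which reads TGAGTCA on the opposite strand, and most known AP-1 sites that control transcription lie in enhancers between genes or in introns. Exons differ from other sequence in that coding bases are also read as codons, so the letters of an element there are shared with the protein code. TEAD proteins, which act with YAP and TAZ and often share enhancers with AP-1, bind GGAATGC or GGAATGT.

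The following 13 elements are shown because the exonic peaks described in detail hold them. Each is given 5′ to 3′ on the sense strand of its gene, with 11 bases to either side and the AP-1 element in capitals, from GRCh37, the assembly behind hg19. The first 5 begin at codon position 3 of coding sequence, the next 2 at codon position 2, and the other 6 lie in untranslated exon sequence.
ELAPOR1 (chr1:109740141-109740169, plus strand): attcctgagggTGAGTCAgggttctccaa
PPARG (chr3:12447491-12447519, plus strand): aaacatttgtaTGACTCAtacataaagtc
DCAF5 (chr14:69522015-69522043, minus strand): tcaggctacacTGACTCAgagtcttcggc
FIGNL1 (chr7:50514489-50514517, minus strand): tctcaagagagTGACTCAttacctaactc
CCDC88B (chr11:64122773-64122801, plus strand): gggcgaagctcTGAGTCAttcagccctgg
COL7A1 (chr3:48603697-48603725, minus strand): gcgccaagagaTGAGTCAgcactgtggtg
ABCC9 (chr12:22005322-22005350, minus strand): actcgttcttgTGACTCAcaaattacagt
BHLHE40 (chr3:5025734-5025762, plus strand): gtcttggtctgTGAGTCActcttcagttt
BTD (chr3:15688553-15688581, plus strand): aaggtctgggaTGAGTCAagtcttcaggg
HNRNPDL (chr4:83344913-83344941, minus strand): acaaatgtgacTGAGTCAttacagtggac
SDR42E1 (chr16:82030887-82030915, minus strand): ttggcccgatgTGAGTCAtccttcctttt
PTP4A1 (chr6:64237748-64237776, plus strand): acatgaaagggTGACTCAtaattcccagc
CCNY (chr10:35621285-35621313, plus strand): gtgcaaatgacTGACTCAtatttcatgga

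Of the 298 exonic peaks, 94 were centred in coding sequence, 11 in 5′ untranslated and 193 in 3′ untranslated exon sequence. The 3′ untranslated peaks sat in long last exons: 187 of 193 were in the last exon of their transcript, 2 in the exon of a transcript with no intron and 4 in an internal exon, with a median exon length of 3470 bp. The coding peaks sat in shorter exons, 74 of 94 internal and 20 last, with a median length of 201 bp, and 18 lay in exons longer than 1000 bp. The shares of all 3′ untranslated or coding bases in such exons are not given here, so these counts only describe the members. The median width was 200 bp over all members and 150 bp in both coding and 3′ untranslated peaks. Wholly inside exon sequence lay 184 of the 193 3′ untranslated peaks but 33 of the 94 coding peaks. The median distance from the centre to the start of the host gene was 19.8 kb for coding, 3.89 kb for 5′ untranslated and 22.9 kb for 3′ untranslated peaks. The rule itself left out every centre within 1 kb of a TSS. To the nearest protein-coding TSS of any gene, the median was 13.4 kb for exonic and 21.1 kb for intronic peaks. For 99 of the 298 the nearest TSS belonged to another gene. For most members, being exonic did not depend on the coding transcript taken. In an exon of the canonical transcript lay 254, and 243 were exonic in every coding transcript that spanned the centre. How many kept the same coding or untranslated label in every transcript was not counted. With exons of any transcript of a protein-coding gene the set held 440 peaks.

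Exon sequence away from promoters held peaks at about the density of sequence between genes. That was slightly below the density of introns, with overlapping intervals. It covered 64.8 Mb and held 4.6 peaks per Mb (4.09 to 5.15), against 5.16 (5.03 to 5.3) in introns, 4.64 (4.53 to 4.75) between genes and 11.4 (10.7 to 12.3) in promoters. Within exons the parts differed. Coding sequence held 3.44 peaks per Mb (2.78 to 4.21), below the interval for introns, whereas 3′ untranslated sequence held 5.3 (4.58 to 6.1), which overlaps it. The 1.08 Mb of 5′ untranslated sequence held 10.2 peaks per Mb (5.07 to 18.2) on 11 peaks alone. For Fra-1 there were 1.68 peaks per Mb in coding sequence against 3.24 in introns, and for Fra-2 3.22 against 4.51. The rule used position alone, so these densities describe the members and carry no test.

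Most exonic peaks were in both lists or in the Fra-2 list alone. Both antibodies gave a peak in 145 of the 298 (48.7%, 42.9 to 54.5), beside 51.5% of all union peaks away from gaps and 50.2% (48.8 to 51.5) of intronic ones. Fra-2 alone gave 129 (43.3%, 37.6 to 49.1), beside 35.3% of all and 37.2% of intronic peaks, and Fra-1 alone gave 24 (8.05%, 5.23 to 11.7), beside 13.2% of all and 12.6% (11.8 to 13.5) of intronic peaks. The intervals of the Fra-1-only shares do not overlap, and neither the Fra-1-only nor the Fra-2-only difference was tested. The exonic minus the intronic share found in both lists was -1.51 percentage points (-7.29 to 4.29), and the two-sided Fisher exact test did not pass (p = 0.793 after Benjamini-Hochberg adjustment over 5 comparisons). In coding sequence 48 of 94 peaks were in the Fra-2 list alone (51.1%, 40.5 to 61.5), 40 in both and 6 in the Fra-1 list alone. In 3′ untranslated sequence 97 of 193 were in both (50.3%, 43 to 57.5), 78 in the Fra-2 list alone and 18 in the Fra-1 list alone. Of the 11 peaks in 5′ untranslated sequence, 8 were in both lists and 3 in the Fra-2 list alone.

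**Figure D1:**
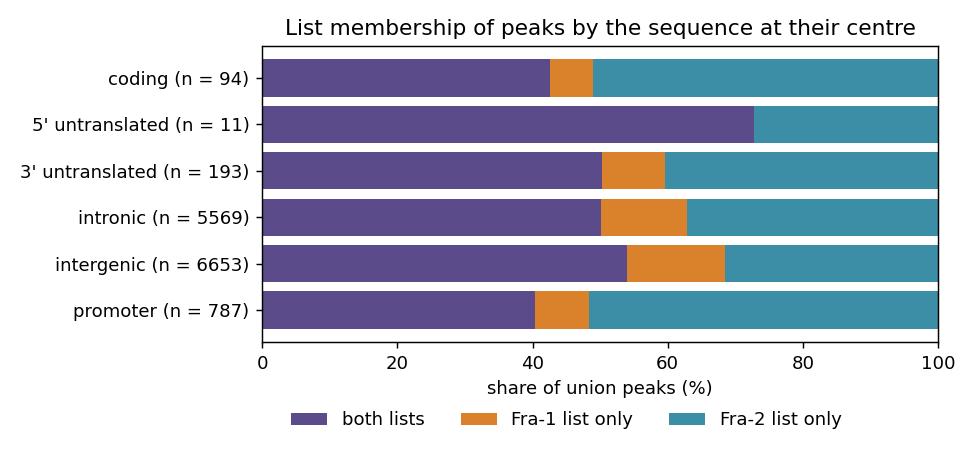
Share of union peaks (percent, horizontal axis) found in both lists, in the Fra-1 list alone or in the Fra-2 list alone, by the sequence at the peak centre, with the number of peaks beside each label. Coding peaks had a Fra-2-only share of 51.1%, close to the 51.7% of promoter peaks, and intronic peaks had 37.2%.

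Where both antibodies gave a peak, sharing required an overlap, so the distance between their centres was limited by the peak widths. In the 145 shared exonic regions the centres of the Fra-1 and Fra-2 peaks were a median of 25 bp apart, on lists with steps of 50 bp. The median width there was 200 bp in each list. This distance was not compared with that in other shared peaks. The Fra-2 part was wider in 67, the Fra-1 part in 36, and both had the same width in 42. Of all exonic peaks 150 of 298 were at least 200 bp wide (50.3%), against 50.7% of intronic peaks, a difference of -0.374 points (-6.17 to 5.41; adjusted p = 0.905, Fisher exact test). Shared members were mostly wide, with 117 of 145 at 200 bp or more (80.7%), against 31 of 129 in the Fra-2 list alone (24%) and 2 of 24 in the Fra-1 list alone (8.33%). Intronic peaks of the same kinds had 75.9%, 26.9% and 20.7%, the same order. Width is that of the union, so a shared region is at least as wide as the widest peak merged into it.

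Most exonic peaks held an AP-1 element near their centre. A copy of TGACTCA or TGAGTCA lay within 100 bp of the centre in 227 of 298 (76.2%, 70.9 to 80.9), beside 70.3% of all union peaks away from gaps and 71.3% of intronic peaks. In all exon sequence away from promoters, 2.74% of windows of the same 201 bp held a copy, and 3.03% did in introns. The exonic share was 4.89 points above the intronic share (-0.396 to 9.53), which did not pass the test (Fisher exact p = 0.0751, adjusted p = 0.375). By sequence, 78 of 94 coding peaks held an element (83%, 73.8 to 89.9), 8 of 11 in 5′ untranslated and 141 of 193 in 3′ untranslated sequence (73.1%, 66.2 to 79.2). Most members held 1 copy: 71 peaks held none, 192 held 1, 32 held 2 and 3 held 3 or more. The nearest copy was a median of 22 bp from the centre, against 20 bp in introns.

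The 3 kinds of list membership differed in the element. An AP-1 element was found in 113 of the 129 exonic peaks of the Fra-2 list alone (87.6%, 80.6 to 92.7), in 104 of the 145 in both lists (71.7%, 63.7 to 78.9) and in 10 of the 24 of the Fra-1 list alone (41.7%, 22.1 to 63.4). Intronic peaks of the same kinds had 81%, 71.2% and 42.9%, the same order. A TEAD element lay within 100 bp of the centre in 9 of the 129 (6.98%), 17 of the 145 (11.7%) and 5 of the 24 (20.8%, 7.13 to 42.2). In intronic peaks of these kinds it was 8.35%, 13.1% and 16.9%, again the same order. Of all 298 exonic peaks 31 held one (10.4%, 7.18 to 14.4), and of all intronic peaks 11.8% did. The exonic minus intronic difference was -1.43 points (-4.53 to 2.64, adjusted p = 0.793, Fisher exact test). Both elements stood together in 21 exonic peaks (7.05%). Of other elements, the cyclic AMP response element TGACGTCA occurred in 1 member, in the 3′ untranslated sequence of GGA2, and the E-box CAGGTG or CACCTG in 37 (12.4%), against 12.6% of intronic peaks. Of all windows of 201 bp away from promoters, 5.02% in exons and 5.05% in introns held a TEAD element. An E-box was in 18% and 15.8% of these windows, so peaks held it less often than the sequence at large.

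The nearest element was not always in the exon that held the centre. Among the 78 coding peaks with an element, its nearest copy lay in coding sequence in 48, in a neighbouring intron in 27, in 3′ untranslated sequence in 2 and within 1 kb of a TSS in 1. Occupancy was therefore also counted per copy of the element. Chromosomes 1 to 22 hold 8793 copies in exons away from promoters, and 235 lay inside a peak of either list (2.67%, 2.35 to 3.03), against 4697 of 171204 in introns (2.74%, 2.67 to 2.82). Of the coding copies, 66 of 3168 were inside a peak (2.08%, 1.61 to 2.64), an interval that ends just below that of introns, and of the 3′ untranslated copies 161 of 5451 (2.95%, 2.52 to 3.44). In 5′ untranslated sequence it was 8 of 174 (4.6%, 2.01 to 8.86), and in promoters 6.56% (6.07 to 7.07). Fra-1 peaks covered 1.23% of coding, 1.65% of 3′ untranslated and 1.66% of intronic copies, and Fra-2 peaks covered 2.02%, 2.77% and 2.52%.

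**Figure D2:**
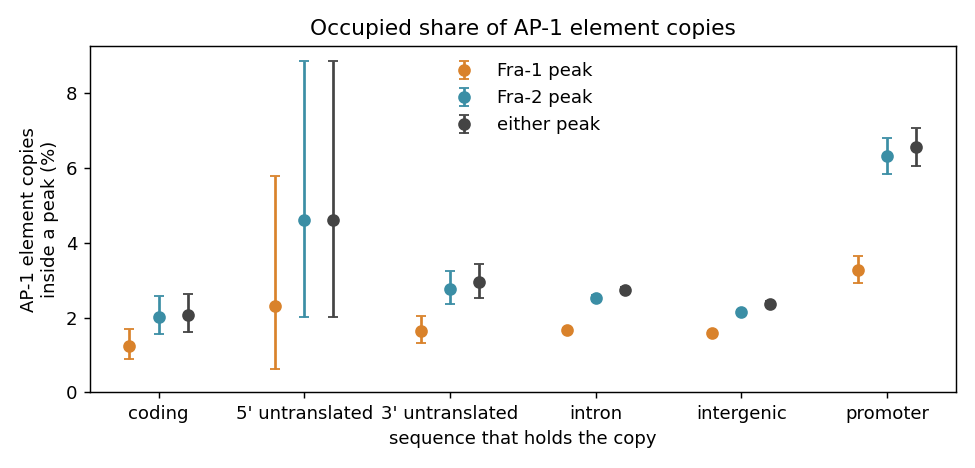
Share of all AP-1 element copies that lay inside a Fra-1 peak, a Fra-2 peak or either (percent, vertical axis), by the sequence that holds the copy (horizontal axis), with exact 95% intervals as bars. Coding copies stood at 2.08% for either peak, 3′ untranslated copies at 2.95%, intronic copies at 2.74% and promoter copies at 6.56%.

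The bases beside the element moved with occupancy in exons as in introns. With a purine just before and a pyrimidine just after the 7 bases, 109 of 1830 exonic copies lay inside a peak (5.96%, 4.92 to 7.14), against 126 of 6963 with other flanks (1.81%, 1.51 to 2.15). The shares were 4.52% and 1.59% in coding sequence, 6.45% and 1.91% in 3′ untranslated sequence, and 5.56% and 1.79% in introns. Of coding copies 16.8% had these flanks, against 25.2% of intronic copies. The PTP4A1 element printed above shows this context, with g before and t after.

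Coding copies can be sorted by the reading frame, and their occupancy differed with it. In the canonical transcripts 2953 coding copies had a frame: none began at codon position 1, where the first letters would be the stop codon TGA, 1241 began at position 2 and 1712 at position 3. A copy at position 3 puts T at the end of a codon, then reads GAC or GAG (aspartate or glutamate) and then TCA (serine). Of the copies at position 3, 48 lay inside a peak (2.8%, 2.07 to 3.7), in 40 genes, against 10 of those at position 2 (0.806%, 0.387 to 1.48), in 10 genes, a difference of 2 points (1.04 to 2.96). This difference was noticed in these data and is given with its interval and no test. With a purine before and a pyrimidine after, 17 of 257 copies at position 3 lay in a peak (6.61%, 3.9 to 10.4), against 2 of 235 at position 2 (0.851%, 0.103 to 3.04). With other flanks it was 31 of 1455 (2.13%) against 8 of 1006 (0.795%). A purine before and a pyrimidine after stood beside 15% of the copies at position 3 and 18.9% of those at position 2. Counting only the first copy of each gene in each frame, 34 of 1475 at position 3 (2.31%, 1.6 to 3.21) and 10 of 1127 at position 2 (0.887%, 0.426 to 1.63) lay in a peak. The part that the wider sequence around each frame, the level of the gene or the openness of its chromatin has in this difference was not tested.

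**Figure D3:**
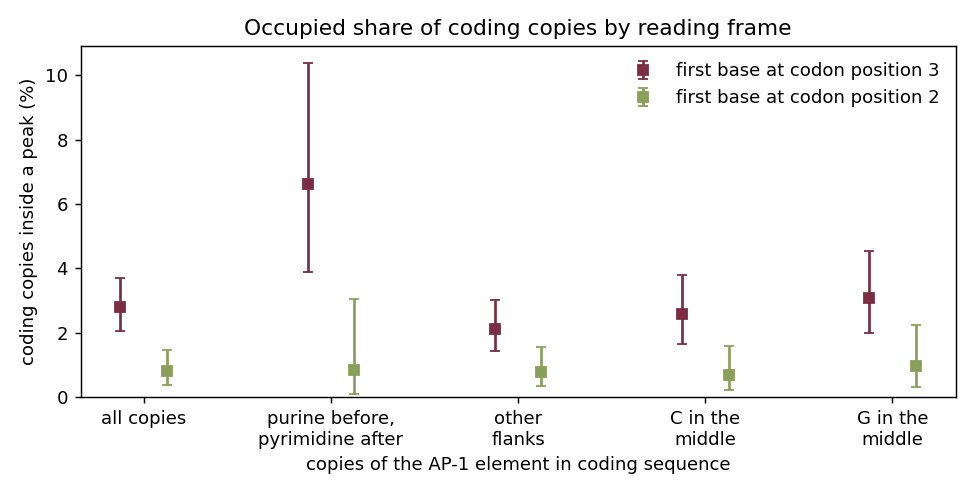
Share of coding copies of the AP-1 element inside a peak of either list (percent, vertical axis) for copies whose first base is at codon position 3 or 2, over all copies, by flanking bases and by the base in the middle on the sense strand, with exact 95% intervals as bars. Copies at position 3 stood above those at position 2 in each of the 5 comparisons, at 2.8% against 0.806% over all copies.

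Among the members, 49 had their nearest element in coding sequence of any gene, of which 36 began at codon position 3, 7 at position 2 and 6 had no frame from a canonical transcript. Of these 49, 8 were at least 300 bp wide: the elements in ELAPOR1, PPARG, DCAF5, FIGNL1, SAMD12 and CCDC88B began at position 3, that in RPTOR, a subunit of the mTORC1 kinase complex, at position 2, and that near TGM2 had no frame. The ELAPOR1 peak (chr1:109739851-109740401) spanned 550 bp, with 400 bp in the Fra-1 list and 500 bp in the Fra-2 list. It was centred in exon 16 of 22, with 32.9% of its bases in exon sequence. Its centre lay 83.3 kb from the nearest start of the gene, which encodes an endosomal and lysosomal transmembrane protein. PPARG encodes a nuclear receptor that drives fat cell differentiation, and its peak (chr3:12447251-12447651) covered 250 bp in the Fra-1 list and 400 bp in the Fra-2 list, over exon 6 of 8, with the TSS of a transcript that is not protein-coding 644 bp away. The DCAF5 peak (chr14:69521851-69522251) covered 350 bp in the Fra-1 list and 400 bp in the Fra-2 list and held 3 elements within 100 bp of its centre, in the last exon of this gene for a substrate receptor of a CUL4 ubiquitin ligase. FIGNL1, an ATPase of homologous recombination, had a peak in both lists (chr7:50514301-50514601) with 2 elements in its last exon, 2.94 kb from a start of the gene. The SAMD12 peak (chr8:119451951-119452251) was in both lists, with its element 5 bp from the centre, and lay 182 kb from the nearest protein-coding start of this gene but 1 bp from the TSS of a transcript that is not protein-coding. The CCDC88B peak (chr11:64122651-64122951) was in the Fra-2 list alone, on exon 25 of 27, and lay 14 bp from a TSS of that kind.

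Of the exonic peaks in both lists, 12 were at least 400 bp wide. In 5 of them an AP-1 element lay within 100 bp of the centre: those in ELAPOR1, PPARG, DCAF5, GPATCH2L and PDE4DIP. The other 7 held none there, and the outer parts of these wide peaks are not covered by that count. The widest, of 650 bp, joined 2 Fra-1 and 2 Fra-2 peaks over part of the last exon of EXOC3L4 (chr14:103576101-103576751), with 58.9% of its bases in exon sequence, a GC content of 68.16% around its centre and neither an AP-1 nor a TEAD element there. SUSD1 (chr9:114803951-114804451) had peaks of 500 bp for both antibodies at the same positions, with a TEAD element and no AP-1 element within 100 bp of the centre. ATOX1, a copper chaperone, had peaks of 450 bp for both antibodies at the same positions (chr5:151124651-151125101), in a 3′ untranslated exon of a transcript that is not the canonical one. The peaks in RP1, a protein of the photoreceptor cilium, and in OTUD7B, a deubiquitinase, held no AP-1 or TEAD element in that window either. The PDE4DIP peak (chr1:144891701-144892101) lay in sequence with copies elsewhere, 60.82% of its 31-base words occurring at another place in the genome, and its place is therefore given as uncertain.

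The peaks found in 1 list alone were narrower in the union, as they were in introns. In the Fra-1 list alone 8 exonic peaks were 150 bp or wider, the widest of 200 bp in SHROOM3 and MAN2A1, and 5 of the 8 held an AP-1 element. HNRNPDL, FAM120B and ABCC9 were taken from the 6 tied at 150 bp by chromosome and start. The HNRNPDL element, in the 3′ untranslated sequence of this gene for an RNA-binding protein, lay 1 bp from the centre of the peak (chr4:83344851-83345001). ABCC9 encodes a regulatory subunit of potassium channels, and the element in exon 23 of 40 began at codon position 2. MAN2A1, a Golgi mannosidase, had a TEAD element and no AP-1 element in its Fra-1 peak (chr5:109159401-109159601). The 5 widest in the Fra-2 list alone were each 300 bp wide, among them those in SNAP47, CCDC88B, SDR42E1 and TGM2. Of the 5, 3 held an AP-1 element within 100 bp of the centre. That in SDR42E1 lay at the centre of its peak (chr16:82030751-82031051), in a last exon of 11370 bp. The TGM2 peak (chr20:36755651-36755951) was also exonic in RPRD1B, as 8 of the 298 members were exonic in more than 1 gene.

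Along the 3′ untranslated sequence the peaks were spread over its whole length. The median position of the 193 centres was 44.3% of the way from the stop codon to the end of the transcript, in untranslated sequences with a median length of 3383 bp. From the stop codon outwards, 4 equal parts of the sequence held 50, 61, 46 and 36 peaks. BHLHE40, a circadian and stress-responsive repressor, had a peak (chr3:5025651-5025951) of 200 bp in the Fra-1 list and 300 bp in the Fra-2 list, with 2 elements, 26.1% along. It was 1 of 15 peaks of this sequence in both lists that were at least 300 bp wide and held an element within 100 bp of the centre. That count is without the peak in PDE4DIP, which lay in repeated words. GPATCH2L, ALDH3B1 and ARFRP1 held the 3 widest of these, and BHLHE40, CKAP2L and EGFLAM were taken from the 12 tied at 300 bp by chromosome and start. ALDH3B1, an aldehyde dehydrogenase, held 3 elements and ARFRP1, a Golgi GTPase, held 2. In CKAP2L 49.71% of the 31-base words occurred elsewhere in the genome. These genes and those of the 5′ untranslated peaks were chosen after their values were seen.

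**Figure D4:**
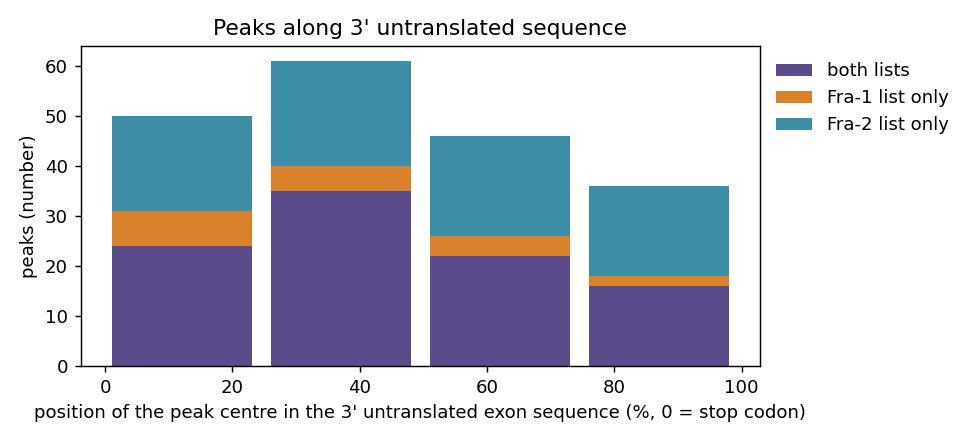
Number of peaks (vertical axis) by the position of the centre in 3′ untranslated exon sequence (percent of its length from the stop codon, horizontal axis), in 4 equal parts, stacked by list. The parts held 50, 61, 46 and 36 peaks.

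The 11 peaks in 5′ untranslated sequence, 9 of them in internal exons, included those in ANXA2, ELK3, TPRG1, PTP4A1, NPY4R, PC, ZCCHC9, CCNY, HNRNPC and SLC37A1. Those in HNRNPC and SLC37A1 were in the Fra-2 list alone, and those in the other genes named were in both. Within 100 bp of the centre, the nearest element lay in 5′ untranslated sequence itself in 6 and in a neighbouring intron in 2 (ELK3 and NPY4R). None was found there in 3, among them ANXA2 and ZCCHC9. In CCNY, a membrane-bound cyclin, 2 elements lay near the centre of the peak (chr10:35621201-35621401), the nearer at 2 bp. In PTP4A1, a phosphatase tied to cell growth, the element lay 14 bp from the centre (chr6:64237651-64237901), 6.12 kb from the nearest start of the gene. For the peaks in SLC37A1 and NPY4R the exon belonged to the canonical transcript, and for the other 9 it belonged to other transcripts alone.

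The exonic peaks were hosted by 284 of 18893 protein-coding genes (1.5%). Host genes were long, with a median of 59.5 kb against 27.1 kb for all other genes, and length was not held fixed in the next counts. An intronic peak was also present in 114 of the 284 (40.1%, 34.4 to 46.1), against 15.7% (15.1 to 16.2) of the others. A promoter peak was present in 28 (9.86%, 6.65 to 13.9), against 3.94% (3.66 to 4.23) of the others. Another union peak lay within 10 kb of 105 exonic peaks (35.2%, 29.8 to 41), against 37.3% of intronic ones.

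Hosts with several exonic peaks were few: 20 genes had 2 or more, and BTD, which encodes biotinidase, was the only one with 3. All 3 lay in its last exon of 9399 bp, between chr3:15687651 and chr3:15689301, and all were in both lists. Within 100 bp of the centre, an AP-1 element was found in the middle one alone, with 2 copies. Some hosts of 2 had an element in each, among them PPP1R15A, a stress-induced regulator of protein phosphatase 1, and SH3TC2, a Schwann cell protein. In CDC27, a subunit of the anaphase-promoting complex, both peaks were in both lists and neither held an element, and 25.73% and 7.6% of their 31-base words occurred elsewhere in the genome. Neither peak of HYDIN, a ciliary protein, or of EML5, a microtubule-binding protein, held an element within 100 bp of its centre. These hosts of 2 were chosen after their values were seen.

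Genes with known ties to AP-1 or to invasive cells hosted exonic peaks at about the background share. Of 150 entries in 7 gene lists, 149 were annotated on chromosomes 1 to 22, and 3 were hosts, a count near what the 1.5% of all genes would give. The hosts included COL7A1 of the 20 matrix and mesenchymal genes and LPP of the 21 annotated adhesion and cytoskeleton genes. None of the 20 AP-1 family genes, 24 YAP/TAZ and TEAD targets, 24 EGFR, RAS and MAPK genes, 20 cytokine and receptor genes or 20 cell cycle genes was a host. COL7A1, the collagen of the anchoring fibrils that tie epithelium to the dermis, had a Fra-1 and a Fra-2 peak at the same positions (chr3:48603601-48603801). They were centred in exon 114 of 119, 1 bp from its edge, with 24.5% of the bases in exon sequence and an element at codon position 2. That peak lay 2.49 kb from the start of UCN2, the nearest protein-coding TSS, and 929 bp from another kind of TSS. LPP, a zyxin-like protein of focal adhesions, had 2 peaks in its last exon of 16322 bp. One was in the Fra-2 list alone (chr3:188599051-188599251) and the other in both lists (chr3:188599851-188600051). Neither held an AP-1 element, and the one in both lists held a TEAD element.

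Other annotation and repeats touched a minority of members. A TSS of a non-coding or other transcript lay within 1 kb of 43 exonic peaks (14.4%, 10.6 to 18.9), against 9.25% of intronic peaks. Of all exon bases away from promoters 14.2% lay so close to one, and 6.2% of intron bases did. The exonic peaks were thus near the share of exon bases. Among coding peaks 23 of 94 lay so close (24.5%, 16.2 to 34.4), where 21.7% of all coding bases away from promoters did. More than 50% of the 31-base words of a peak's centre occurred elsewhere in the genome in 3 exonic peaks (1.01%), those in PDE4DIP, VMP1 and USHBP1, against 2.01% of intronic peaks. That difference of -1 point (-1.78 to 0.936) did not pass the test (adjusted p = 0.713, Fisher exact test), and 268 members had no such word at all. The limit of 1 kb left out 144 exonic centres nearer to a TSS, of which 80 were in the Fra-2 list alone, 47 in both and 17 in the Fra-1 list alone. The farthest of these lay 989 bp from a TSS and the nearest member 1028 bp.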

How the data were processed

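The deposited files hold the positions of peaks as the authors called them, a value other than a count or signal, on a grid of 50 bp with no score. The submitters' processing notes name Bowtie2 and hg19. Peak caller, threshold, use of the input and combination of replicates: not given in the sources used here. Starts were read as 1-based.

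Union peaks and classes were computed with numba 0.67.0, numpy 2.4.6, scipy 1.17.1, pandas 2.3.3 and matplotlib 3.10.9 in Python 3.11.15, on GRCh37 with GENCODE 44 lifted to that build. Classes took precedence in the order gap, promoter, coding, untranslated, intron, intergenic. Both strands were searched for elements up to 100 bp from each centre, and for words of 31 bases the whole genome was searched. The 5 exonic against intronic shares were compared with two-sided Fisher exact tests and Benjamini-Hochberg adjustment at 0.05. Class assignment, merging, the element search and the Fisher test were tried on made-up or simulated data, and the adjustment was not. Members and lists were chosen with earlier results of these data known.

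Named genes were the 10 widest peaks in both lists, the 5 widest in each list alone, the 6 widest with a coding element, hosts of 3 or more, and hosts in a gene list, with ties in width cut by chromosome and start; some of them are not reported here. With no depth or replicate values, precision is that of peak counts.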

Additional observations from a re-analysis of the deposited data

How the results depend on the processing

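None of the 5 differences between exonic and intronic peaks passed an adjusted p of 0.05 under any setting. The exonic minus intronic share in both lists turned to 1.64 points with exons of any transcript of a protein-coding gene and to 2.93 points with peaks at least 200 bp wide, against -1.51 points, and was -3.38 to -0.344 under 5 other settings. The share at least 200 bp wide turned to 1.73 points with exons of any transcript and to 0.982 points beyond 5 kb from a TSS, against -0.374 points. The cause was not tested. The AP-1 difference kept its direction under 8 settings (0.269 to 5.16 points), with 0.269 points among peaks at least 200 bp wide, and the TEAD difference under 8 (-2.13 to -0.323). The difference between codon positions 3 and 2 was 5.76 points with a purine before and a pyrimidine after, against 2 points over all copies, and 1.34 to 2.11 points under 5 other settings; these were chosen after seeing the data. No paired analysis was possible because there is 1 list per antibody with no replicate numbers, and for the same reason no replicate could be left out. Depth is unknown, so weak sites in exons may lie under the authors' threshold.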
